A study of Mus musculus with 24 samples.

Results

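The 7 genes described here are Meis1, Meis2 and Shox2, which encode homeodomain transcription factors of the proximal limb, and Aldh1a2, Cyp26b1, Rarb and Rarg, which make, degrade and bind retinoic acid. Their loci were taken as the gene body in mm10 with 50 kb on either side, and every peak that overlapped such a window in any of 7 peak lists was kept. This gave 726 of 368246 peaks on chromosomes 1 to 19, X and Y, and no peak lay in the windows of more than 1 of the genes.

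Retinoic acid is made from retinaldehyde by aldehyde dehydrogenases of which Aldh1a2 is the main enzyme of the early embryo, and it reaches the limb bud from the flank. It binds nuclear receptors (Rara, Rarb and Rarg, paired with Rxr partners) that sit on direct repeats of a short half-site, and Cyp26 enzymes oxidise it. In the early limb bud Meis1 and Meis2 mark the proximal, future upper-limb domain and are known retinoic acid targets. Cyp26b1 is a distal gene that keeps retinoic acid away from the tip, and Shox2 is needed for the proximal long bones. H3K27ac marks active promoters and enhancers, H3K4me2 marks both kinds of element also without acetylation, and H3K27me3 is the mark of Polycomb silencing.

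The limb lists came from whole forelimb buds of Swiss Webster embryos at E10.5 with 32 to 35 somites, at 400000 cells per immunoprecipitation. WT controls, which by the study's methods also included heterozygous littermates, were compared with Shh-/- embryos, which lack the Hedgehog ligand of the limb. H3K27ac and H3K4me2 were mapped in both genotypes and H3K27me3 was analysed here in Shh-/- buds only. H3K27ac was also mapped in the Hedgehog-responsive mouse fibroblast line NIH3T3, kept for 48 h with LIF and either 400 nM of the pathway agonist purmorphamine or the solvent DMSO. Limb buds of several embryos from more than 1 litter were pooled for each sample, so single embryos are not seen. The NIH3T3 cells were stained with another H3K27ac antibody than the limb, so cell type and antibody cannot be told apart.

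Each list had been called from both replicates of a condition together, so no value here has a replicate error and no difference between conditions could be tested. Intervals below are 95% Wilson intervals, which cover counting error only. Peak strength is given as the rank of a peak as a percent of its own list, with low values for strong peaks, since scores of different lists are not on 1 scale. A list from whole buds cannot tell fewer marked cells from less mark per cell. The WT H3K27ac list had 49679 peaks and the Shh-/- one 43916, and the Shh-/- H3K27me3 list was the shortest of the 7, at 20830 peaks. Start peaks of Prrx1 and Tbx5, markers of limb mesenchyme and forelimb, ranked within the best 0.449% of both limb H3K27ac lists. The hindlimb genes Tbx4 and Pitx1 had no acetylated start in either limb list, Epcam, Trp63 and Ptprc had none either, and Cdh5, Pecam1 and Pax3 had at most 1 weak start peak each, at 56.1% or lower down the list. At the deleted gene, no list held an H3K27ac peak within the Shh body, and H3K4me2 peaks there numbered 3 in WT and 1 in Shh-/- buds. The labels do not say which part of the gene is missing, so this checks nothing.

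The retinoic acid synthesis gene Aldh1a2 was the only member without any acetylated peak. Its window on chromosome 9 (gene body 71215789 to 71296243) held 0 H3K27ac peaks in WT buds, in Shh-/- buds and in NIH3T3 cells with and without purmorphamine. Windows with no H3K27ac peak were common, at 24.3% of 21938 protein-coding genes in the WT limb list and 26.8% in the Shh-/- limb list. At its single annotated start the gene carried the methylation marks instead. H3K4me2 formed 1 peak in WT buds, 650 bp wide at rank 16034 (43.8%), and 1 in Shh-/- buds, 1000 bp wide at rank 857 (2.23%). H3K27me3 in Shh-/- buds formed 3 peaks, and the widest, 3100 bp at chr9:71215350-71218449, was at rank 1023 of its list (4.91%). This was the best-ranked and the widest H3K27me3 peak of all 7 loci. The Aldh1a2 start therefore carried H3K4me2 together with H3K27me3 and no acetylation, as did 2039 of the 2763 coding genes with an H3K27me3 start peak (73.8%).

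The bases before the Aldh1a2 start are printed because they set it apart from the other members, with those of Shox2 and Meis1, whose starts were acetylated, for comparison. Each runs 5′ to 3′ in the gene's direction and ends at the base before the annotated first exon, and CpG dinucleotides are in capitals. The sequences are from RefSeq, assembly GRCm38.p6.
Aldh1a2, plus strand, chr9:71215539-71215788: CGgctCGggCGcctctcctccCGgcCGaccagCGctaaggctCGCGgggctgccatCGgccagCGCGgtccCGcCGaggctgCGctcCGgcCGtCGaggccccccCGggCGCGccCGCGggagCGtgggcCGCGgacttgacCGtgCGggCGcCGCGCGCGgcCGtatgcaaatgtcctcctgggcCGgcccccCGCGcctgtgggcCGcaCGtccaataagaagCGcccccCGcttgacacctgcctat
Shox2, minus strand, chr3:66981772-66982021: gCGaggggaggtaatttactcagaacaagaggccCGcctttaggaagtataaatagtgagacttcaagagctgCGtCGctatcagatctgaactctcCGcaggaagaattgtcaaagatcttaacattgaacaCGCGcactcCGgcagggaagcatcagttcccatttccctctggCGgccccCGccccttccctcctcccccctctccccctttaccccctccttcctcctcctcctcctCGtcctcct
Meis1, minus strand, chr11:19018986-19019219: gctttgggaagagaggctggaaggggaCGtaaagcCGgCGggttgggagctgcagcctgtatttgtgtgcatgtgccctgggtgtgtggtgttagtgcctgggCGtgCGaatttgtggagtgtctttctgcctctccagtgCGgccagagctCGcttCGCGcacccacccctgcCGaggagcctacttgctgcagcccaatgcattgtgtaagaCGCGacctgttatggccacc

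The Aldh1a2 stretch held 40 CpG dinucleotides in 250 bases, against 11 in 250 bases for Shox2 and 12 in 234 bases for Meis1. In the RefSeq promoter windows, which run from 250 bases before to 50 after a start, Aldh1a2 had 50 CpG and a GC content of 78.0%. That count was above those of 99.1% of 32851 promoters, whose median was 7. The promoters of the other members held between 9 and 17 CpG.

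**Figure D1:**
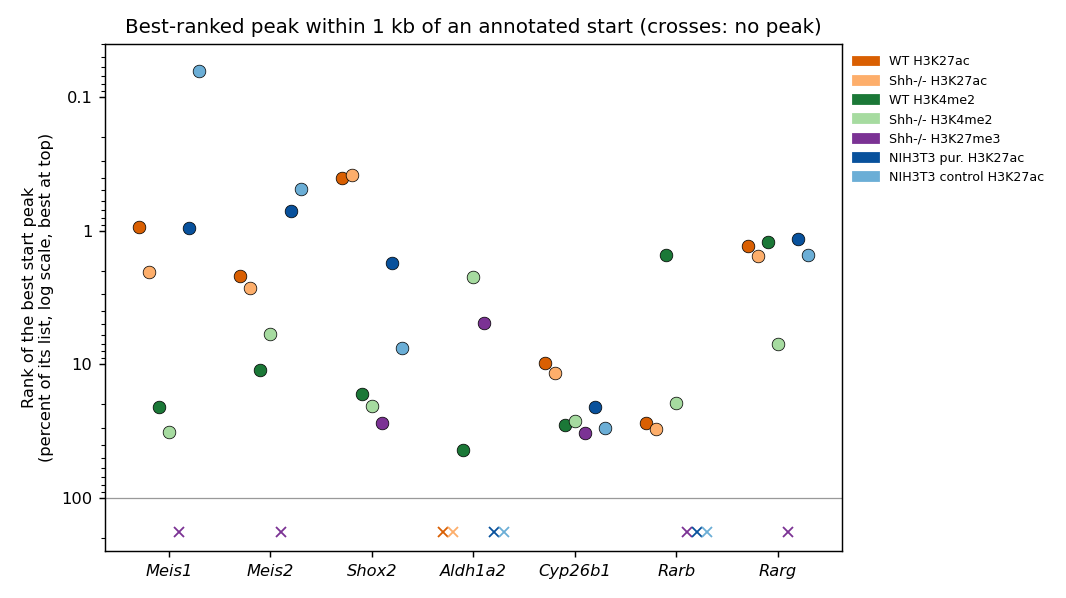
Rank of the best peak within 1 kb of an annotated start of each gene, as a percent of its list on a log axis with the strongest at the top, for the 7 lists. Crosses below the line at 100 mark genes with no such peak: Aldh1a2 has no H3K27ac peak in any of the 4 lists of that mark, and Rarb has none in NIH3T3 cells.

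Cyp26b1, the enzyme that clears retinoic acid from the distal bud, was acetylated within its gene body and not at its annotated 5′ end. All 7 WT and all 7 Shh-/- H3K27ac peaks lay within the body (chromosome 6, 84571414 to 84593908, minus strand), around the innermost of its 5 annotated starts, at 84587680. The RefSeq promoter at the 5′ end held no peak of any of the 7 lists. The best acetylated peak was an intronic one in both genotypes, chr6:84584700-84585749 in WT buds (rank 2843, 5.72%) and chr6:84584600-84586399 in Shh-/- buds (rank 3477, 7.92%). The best peak within 1 kb of a start was next to it at 9.87% in WT buds. Over the innermost start itself, WT buds had chr6:84587350-84588699 at 11.2% and Shh-/- buds chr6:84587450-84588699 at 11.7%. Both genotypes had nearly the same acetylated interval there. H3K4me2 covered the same stretch, with its best peaks at 22.7% in WT and 4.25% in Shh-/- buds, and all 7 WT H3K27ac peaks overlapped a WT H3K4me2 peak. H3K27me3 formed 7 peaks, 5 of which lay on Shh-/- H3K27ac peaks. The best of these, chr6:84585450-84586199, ranked at 9.01% of the H3K27me3 list and sat inside the best acetylated peak of the same genotype.

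In NIH3T3 cells Cyp26b1 kept acetylation at the innermost start, at 20.9% of the purmorphamine list and 30.2% of the control list. Neither NIH3T3 list held the intronic limb peak, and their best peaks lay between genes, past the 3′ end of Cyp26b1, at 17.7% with purmorphamine and 24.5% in controls.

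Rarb, the retinoic acid receptor that is itself induced by retinoic acid, had many weak acetylated peaks spread over a long gene. The 2 starts of its basic annotation, at 16575543 and 16575827, lie well inside the body. That body on chromosome 14 (16430839 to 16819156) held all but 1 of the 21 WT and all but 1 of the 20 Shh-/- H3K27ac peaks, and the best were at 21.8% (rank 10850) and 20.1% (rank 8807). Peak bases made up 13.3 bp per kb of the window in WT and 13.0 in Shh-/- buds, beside a median of 8.71 and 6.61 over all coding genes. The acetylated start peaks were at 27.4% in WT and 30.7% in Shh-/- buds. H3K4me2 at the same start was strong in WT buds, chr14:16574100-16576199 at rank 554 (1.51%), and less so in Shh-/- buds, where a peak of the same width, chr14:16574050-16576149, was at rank 7551 (19.6%). The start had no H3K27me3 peak and no H3K27ac peak in NIH3T3 cells. Those cells instead had 24 and 25 peaks within the body, with purmorphamine and without it, and their best was at 13.0% and 7.07%.

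The Rarb start holds the element by which retinoic acid is known to induce this gene, and it is printed for that reason. The search was for exact direct repeats of any half-sites among AGGTCA with its variant AGTTCA and GGGTCA with its variant GGTTCA, with a spacer of 5 (DR5) or 2 (DR2) bases on either strand. Half-sites are in capitals, and the sequences, from GRCm38.p6, are 5′ to 3′ on the strand named. Matches inside peaks of the 7 loci numbered 3, and all are given.
Rarb DR5, minus strand, chr14:16575507-16575535: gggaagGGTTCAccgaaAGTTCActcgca
Meis2 DR5, minus strand, chr2:116071222-116071278: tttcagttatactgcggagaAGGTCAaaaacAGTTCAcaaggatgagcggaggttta
Rarg DR2, plus strand, chr15:102260453-102260506: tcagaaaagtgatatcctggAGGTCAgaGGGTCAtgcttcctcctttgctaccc

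The Rarb repeat lay 45 bp before the RefSeq start and within a Rarb exon of the GENCODE annotation. It was inside the H3K4me2 start peak of both genotypes. The nearest acetylated peak ended 14 bp away in WT and in Shh-/- buds alike, so the element itself fell just outside the H3K27ac peaks, and in NIH3T3 cells the nearest peaks were 19864 and 19514 bp away. Among RefSeq promoters, 32 of 32851 (0.0974%) held a DR5, and Rarb was the only member among them. The Meis2 repeat lay 5.41 kb before the nearest annotated start, within the body of the noncoding gene G630016G05Rik and outside its exons. It was in a weak WT H3K4me2 peak (61.2%) and in H3K27ac peaks of NIH3T3 cells, at 15.2% with purmorphamine and 25.4% without. Limb acetylation ended 393 bp from it in WT and 143 bp in Shh-/- buds. The Rarg repeat, 2.96 kb before the upstream start, was only in a peak of purmorphamine-treated NIH3T3 cells, the best-ranked peak of that window (1.16%), and the nearest control peak ended 624 bp away.

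Rarg, the receptor found in most limb mesenchyme, had no H3K27me3 peak. H3K27ac peaks lay within 1 kb of both of its starts in limb and in NIH3T3 cells. The RefSeq promoter window at the start at 102246500 overlapped an H3K27ac peak in Shh-/- buds and NIH3T3 cells, but none in WT buds. Its window on chromosome 15 (gene body 102234938 to 102257517) held 17 WT and 14 Shh-/- H3K27ac peaks, with the best at 1.30% in WT (chr15:102247050-102250099) and 1.56% in Shh-/- buds (chr15:102247300-102250749). H3K4me2 was densest here among the 7 loci, at 120 bp per kb in WT and 100.3 in Shh-/- buds, more than at 99.0% and 98.7% of coding genes. Of the 17 WT acetylated peaks, 14 overlapped a control NIH3T3 peak. The start peaks of NIH3T3 cells ranked at 1.16% with purmorphamine and 1.52% without. This is a gene-dense window that also holds Csad, Zfp740, Itgb7, Gm9918, Mfsd5 and Espl1, and its second-best WT peak was at the Zfp740 start.

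Meis1 and Meis2 were strongly acetylated at their starts in all 4 H3K27ac lists. At Meis1 (chromosome 11, 18879817 to 19018985) the start peak was 8250 bp wide at rank 467 in WT buds (0.940%) and 7350 bp wide at rank 889 in Shh-/- buds (2.02%). In NIH3T3 cells it was wider, 14600 bp at rank 832 with purmorphamine (0.948%) and 14550 bp at rank 58 in controls (0.0637%). The control value made it one of the strongest acetylated peaks of that list. The window held 39 WT and 38 Shh-/- H3K27ac peaks, and 87.4 and 93.9 bp per kb, above 98.4% and 98.8% of coding genes. A further acetylated stretch lay around the 3′ end of Meis1 in both limb and NIH3T3 lists, with chr11:18876950-18877499 at 10.1% in WT buds. The best H3K4me2 peak of the locus was also there, at 9.25% in WT and 3.61% in Shh-/- buds, ahead of the start peak at 20.9% and 32.0%. The 5 H3K27me3 peaks of the window lay outside the gene, past its 3′ end, and the best of them (19.6%) was at the start of the noncoding gene 8430419K02Rik.

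At Meis2 (chromosome 2, 115863064 to 116065839) the start peak was 3700 bp wide at rank 1077 in WT buds (2.17%) and 5500 bp wide at rank 1175 in Shh-/- buds (2.68%). In NIH3T3 cells it ranked at 0.714% with purmorphamine and 0.484% without. The window held 28 WT and 24 Shh-/- H3K27ac peaks. The WT peak that followed the start peak in rank, chr2:115869450-115870349 at 8.64%, was intronic, 195 kb into the gene (singled out after its values had been seen), was shared with Shh-/- buds and had no control NIH3T3 peak. H3K27me3 formed 5 peaks, all past the 3′ end, and the widest, chr2:115853200-115855249 (2050 bp, 8.23%), overlapped a WT H3K4me2 peak and no Shh-/- H3K27ac or H3K4me2 peak. Meis2 and Meis1 thus had no H3K27me3 peak within 1 kb of a start.

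Shox2 was the most densely acetylated of the 7 loci in the limb. Its window on chromosome 3 (gene body 66971727 to 66981771) contained 24 acetylated peaks in the WT list and 23 in that of Shh-/- buds, with 189.9 and 174 bp per kb, above 99.6% and 99.5% of coding genes. The start peaks were at rank 202 in WT (0.407%) and rank 167 in Shh-/- buds (0.380%), the strongest limb start peaks of the 7 genes in both genotypes. NIH3T3 cells had only 5 and 6 peaks here, at 50.0 bp per kb with purmorphamine and in controls alike, and the start peak ranked at 1.74% with purmorphamine and 7.59% without. Only 2 of the 24 WT limb peaks overlapped a control NIH3T3 peak. A stretch between genes past the 3′ end, which was singled out after its values had been seen, was acetylated in the limb and not in NIH3T3 cells. It held chr3:66939950-66941049 at 1.43% and chr3:66937450-66939699 at 5.21% in WT buds, and both overlapped 1 Shh-/- peak, chr3:66937700-66941299, at 6.82%. The best peak was within 1 kb of starts of both Shox2 and its neighbour Rsrc1, so it cannot be given to 1 of them.

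**Figure D2:**
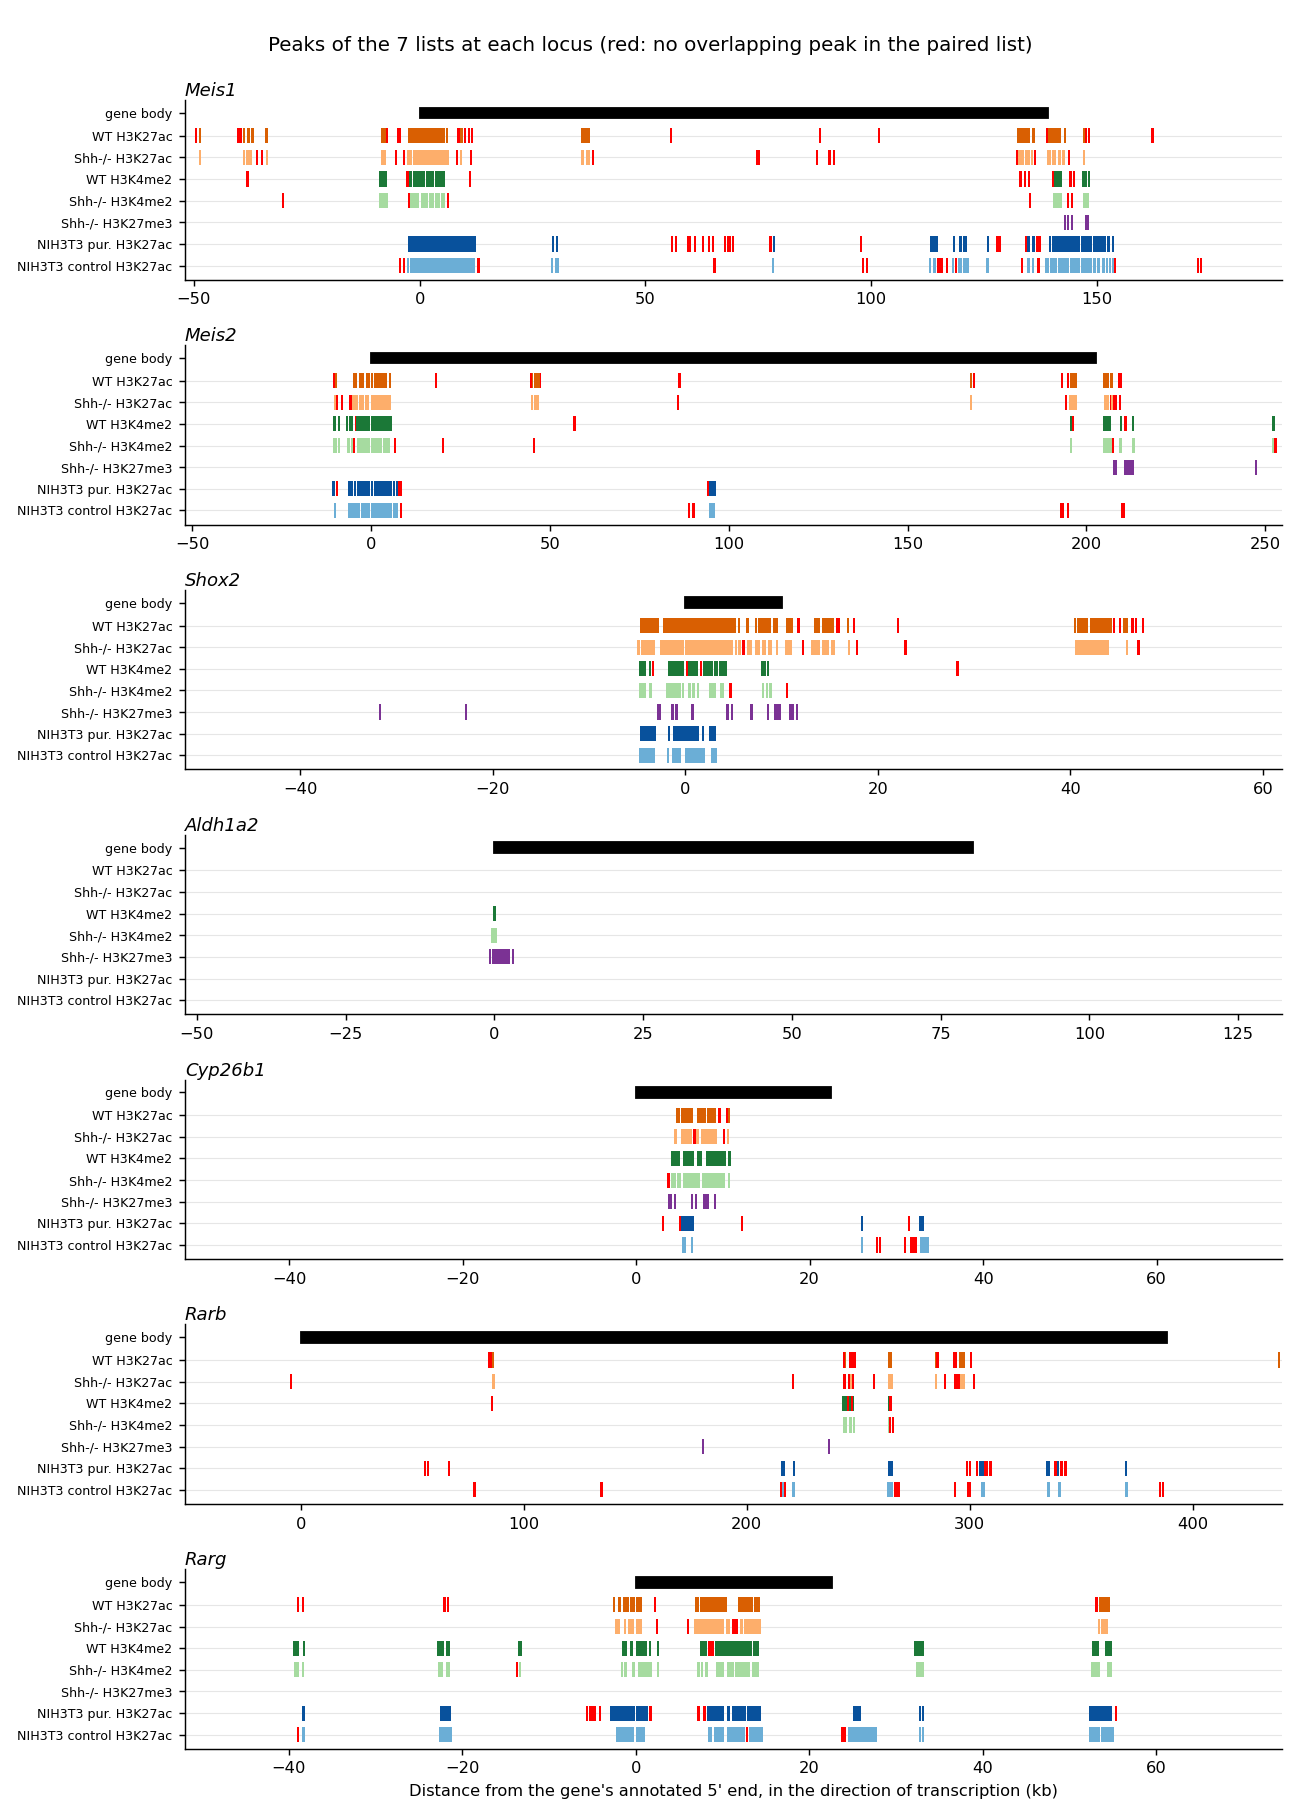
Peaks of the 7 lists at each locus by distance in kb from the gene's annotated 5′ end, in the direction of transcription, with the gene body in black. Each panel has its own scale, the narrowest peaks are drawn at a minimum width, and peaks with no overlap in the paired list are in red. Aldh1a2 has 3 rows with peaks and no acetylated row, and Shox2 has a limb-only group near 40 kb.

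**Figure D3:**
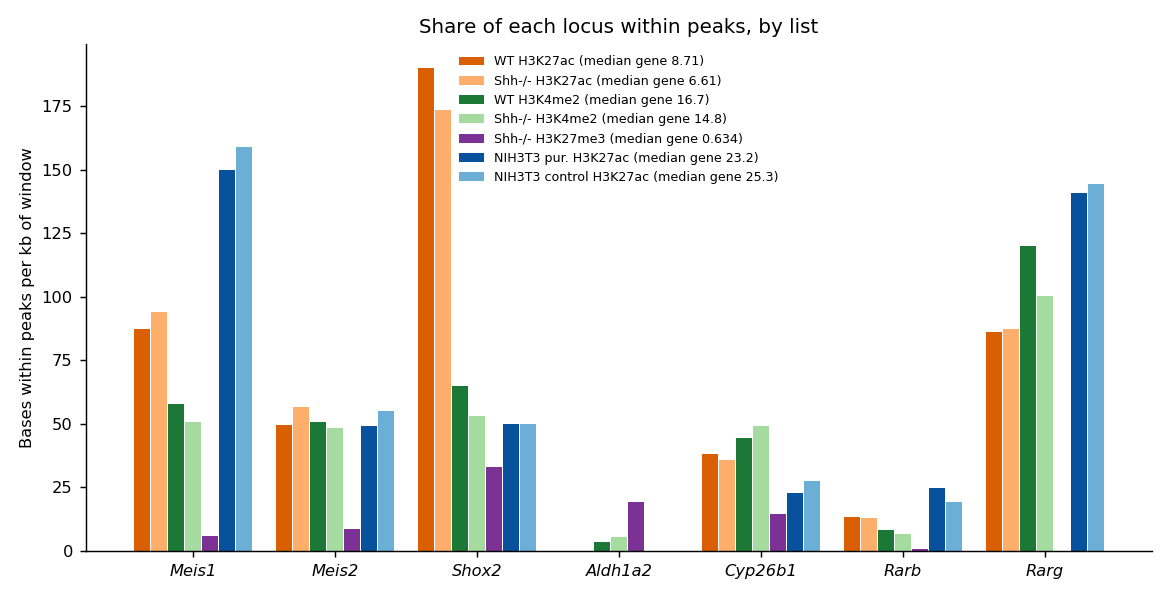
Bases within peaks per kb of window (gene body with 50 kb on either side) for each gene and list. The key gives the median over 21938 coding genes. Shox2 reaches 189.9 bp per kb in WT H3K27ac, and Aldh1a2 is at 0 in all 4 H3K27ac lists.

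Most of the acetylated stretches at these loci were present with and without Shh. Of 136 WT H3K27ac peaks, 56 had no overlapping Shh-/- peak (41.2%, interval 33.3% to 49.6%), where 48.5% of all WT peaks had none. In the other direction 45 of 126 Shh-/- peaks had no WT peak (35.7%, 27.9% to 44.4%), beside 38.4% over the whole list. Weighted to the rank deciles of the loci's peaks, the shares over the whole lists were 49.4% and 36.0%. Under this rule of 1 bp all 4 background shares lay inside the intervals. Where 50% of a peak had to be covered, the WT-only share was further below its list, at 47.1% (38.9% to 55.4%) beside 58.9% of all WT peaks. The Shh-/- only share was then above its list, at 51.6% (42.9% to 60.1%) beside 46.8%, which lay inside the interval. With a window of 100 kb the WT-only share was nearer its list, at 41.7% beside 48.5%. In bases, 58.4 of 78.5 kb of WT acetylated sequence at the loci was acetylated in Shh-/- buds (74.4%), against 59.7% over the list. In the other direction the same 58.4 kb was 72.9% of the Shh-/- acetylated sequence at the loci, against 70.5% over the list. Rarb had the lowest share of WT acetylated bases also acetylated in Shh-/- buds of the 6 acetylated members, at 49.1%, and Meis2 the highest, at 79.9%.

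The unshared peaks were narrow and weak. Their ranks and widths were not set beside those of unshared peaks over the whole lists, so neither is shown to be particular to these loci. No WT-only peak of the 7 loci ranked in the best 25% of its list. The best was chr11:19068350-19068699, 350 bp wide at 26.1%, in an exon of 4933406G16Rik upstream of Meis1 and 551 bp from a Shh-/- peak. The best Shh-/- only peak was chr14:16571850-16572199 in a Rarb intron, at 25.3%, 151 bp from a WT peak. WT-only peaks had a median width of 150 bp and shared WT peaks one of 450 bp. Counting peaks within 500 bp of each other as shared left 21 of 136 WT-only peaks (15.4%, 10.3% to 22.5%, list 30.5%) and 17 of 126 Shh-/- only peaks (13.5%, 8.60% to 20.5%, list 20.9%), and both list shares lay above the intervals. By gene, 17 of 39 WT peaks were unshared at Meis1, 10 of 28 at Meis2, 9 of 24 at Shox2, 2 of 7 at Cyp26b1, 12 of 21 at Rarb and 6 of 17 at Rarg. Among the 80 WT peaks with a Shh-/- partner, 37 ranked better in WT and the median difference in rank, WT minus Shh-/-, was 1.89 points, from -73.7 to 75.7. Over the whole list 50.7% of 25606 such peaks ranked better in WT. At the loci each WT peak was paired with the best-ranked Shh-/- peak it overlapped, a choice that can only favour the Shh-/- rank. The same partner could serve several WT peaks, so the pairs are not independent.

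**Figure D4:**
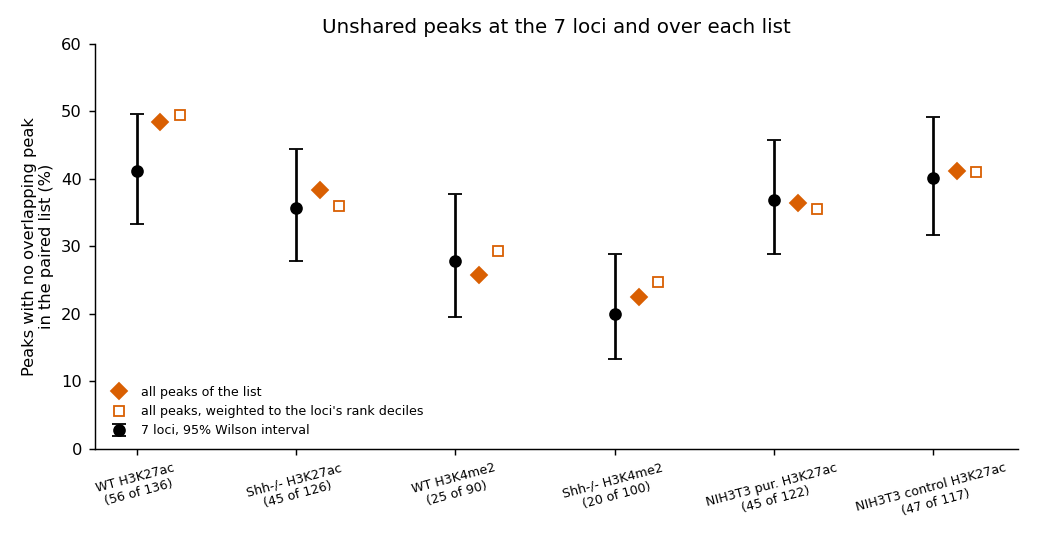
Percent of peaks with no overlapping peak in the paired list, at the 7 loci (black points, bars are 95% Wilson intervals), over the whole list (filled diamonds) and over the whole list weighted to the rank deciles of the loci's peaks (open squares). The share over the list lies inside the interval of the loci in all 6 lists, and the weighted share does too.

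H3K4me2 at the loci was also mostly shared between the genotypes. Of 90 WT H3K4me2 peaks 25 had no Shh-/- partner (27.8%, 19.6% to 37.8%, list 25.7%), and of 100 Shh-/- peaks 20 had no WT partner (20.0%, 13.3% to 28.9%, list 22.5%). Rarg had 1 unshared peak of 18 in WT and 1 of 23 in Shh-/- buds, and Cyp26b1 none of 5 in WT. The unshared WT peak of Rarg, chr15:102248500-102249149, was the best-ranked unshared H3K4me2 peak of the 7 loci (14.6%) and lay 51 bp from a Shh-/- peak. Acetylated WT peaks overlapped a WT H3K4me2 peak in 54 of 136 cases (39.7%, 31.9% to 48.1%), beside 32.1% over the list. By gene the numbers were 7 of 7 at Cyp26b1, 13 of 17 at Rarg, 13 of 28 at Meis2, 13 of 39 at Meis1, 5 of 21 at Rarb and 3 of 24 at Shox2.

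The rank of the best H3K4me2 start peak lay furthest apart at Aldh1a2, with 43.8% in WT and 2.23% in Shh-/- buds, and then at Rarb in the other direction, with 1.51% and 19.6%. The Aldh1a2 difference of 41.6 points lay within the range over the 65 shared WT H3K4me2 peaks of the loci, -45.1 to 59.8 points. Their median difference was 5.87 points (list 2.21 points), with pairs formed as for H3K27ac. With 1 pooled list per genotype, neither difference can be set against a spread between replicates. The paper compared H3K4me2 signal between the genotypes with replicates and reports nearly all peaks as unchanged. Its values for these start peaks are not given here.

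With and without purmorphamine, peaks at these loci were unshared about as often as peaks elsewhere. Of 122 peaks in purmorphamine-treated NIH3T3 cells 45 had no control partner (36.9%, 28.8% to 45.7%, list 36.5%), and of 117 control peaks 47 had no purmorphamine partner (40.2%, 31.7% to 49.2%, list 41.1%). None of the 5 purmorphamine and 6 control peaks at Shox2 was unshared. Rarb had 12 of 24 unshared with purmorphamine and 14 of 25 without, and Cyp26b1 4 of 7 and 4 of 8. Of the 77 purmorphamine peaks with a partner 30 ranked better with purmorphamine, and 37.9% did over the whole list. Meis1 gave the largest set of pairs, 7 of 31 better with purmorphamine, while Rarg had 9 of 13 and Cyp26b1 3 of 3. Each purmorphamine peak was paired with the best-ranked control peak it overlapped, which can only favour the control rank. At Meis1 several purmorphamine peaks had the same control partner, so its 31 pairs are not independent.

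Limb and fibroblast acetylation overlapped at the loci as often as over the list. Of 136 WT limb peaks 52 overlapped a control NIH3T3 peak (38.2%, 30.5% to 46.6%), and 38.2% of all WT limb peaks did. By gene the overlap was 14 of 17 at Rarg and 21 of 39 at Meis1, and 11 of 28 at Meis2, 3 of 21 at Rarb, 1 of 7 at Cyp26b1 and 2 of 24 at Shox2.

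H3K27me3 at these loci often lay on acetylated sequence, and most such peaks were at Shox2 and Cyp26b1. In Shh-/- buds 18 of the 35 H3K27me3 peaks overlapped a Shh-/- H3K27ac peak (51.4%, 35.6% to 67.0%), and 1.91% of all H3K27me3 peaks did, 397 of 20830. Shox2 had 10 of its 13 on acetylated peaks, Cyp26b1 5 of 7, Meis2 2 of 5 and Meis1 1 of 5. Aldh1a2, with 3 peaks, and Rarb, with 2, had none, and Rarg had no H3K27me3 peak. Of all coding genes 40 had at least as many such peaks in their window as Shox2 and 62 as many as Cyp26b1, of 21938, and these windows can overlap. Acetylation is dense in the Shox2 window, at 174 bp per kb in Shh-/- buds, and the part of that density in the overlap was not tested. Without Shox2 the share at the other loci was 36.4%.

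The Shox2 peaks with both marks were 150 to 800 bp wide with log2 ratios of H3K27me3 to input from 2.35 to 3.27, and 7 of the 10 had a false discovery rate (FDR) under 0.05. The widest, chr3:66971800-66972599 in a UTR near the 3′ end of the gene, ranked at 14.6% and overlapped acetylated peaks of both genotypes. The WT one was at 17.8% of its list, but the Shh-/- one paired with it, chr3:66972250-66972349, was weak, at 91.6%. The 5 at Cyp26b1 had log2 ratios from 2.24 to 3.67, and 3 had an FDR under 0.05. None of those at Meis1 and Meis2 did. With an FDR under 0.05 in every list, 10 of 16 H3K27me3 peaks of the loci overlapped Shh-/- H3K27ac (62.5%), beside 2.47% over the list. Overlap with Shh-/- H3K4me2 was also frequent, at 17 of 35 (48.6%, 33.0% to 64.4%) beside 20.1% over the list, with 6 of 7 at Cyp26b1, 5 of 13 at Shox2, 4 of 5 at Meis1, 1 of 5 at Meis2 and 1 of 3 at Aldh1a2. In the better-ranked 50% of each list, H3K4me2 included, it was 5 of 17 (29.4%, 13.3% to 53.1%) beside 24.3%. That interval holds both the list share and the 48.6%, so it does not decide whether the difference remains there. With the full H3K4me2 list 9 of these 17 overlapped, for which no list share was computed. Both marks on the same bases of a whole-bud list can come from different cells or from the same ones, which was not tested.

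**Figure D5:**
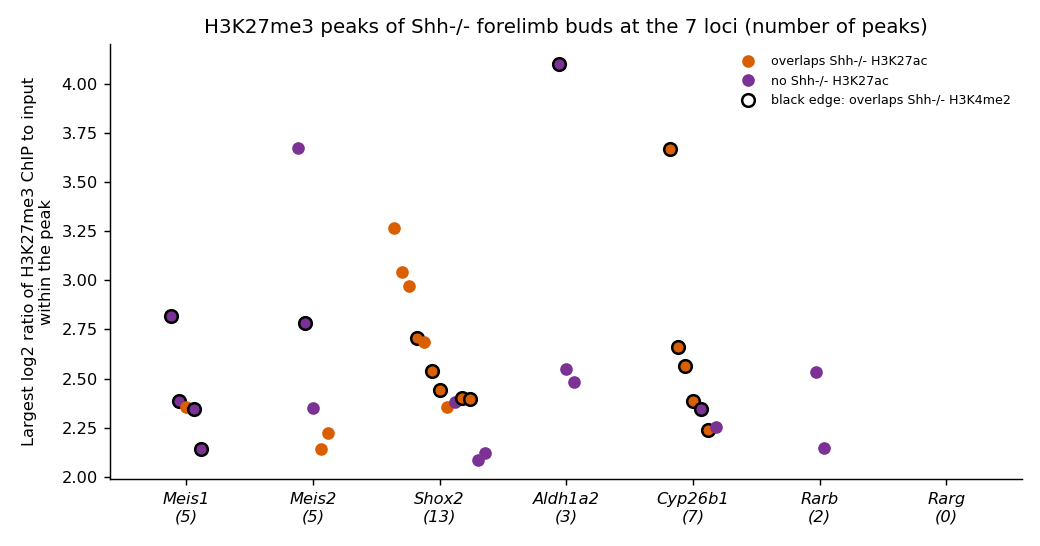
Largest log2 ratio of H3K27me3 ChIP to input within each of the 35 peaks of Shh-/- buds, by gene in order of rank, with the number of peaks under each gene. Orange peaks overlap a Shh-/- H3K27ac peak and black edges mark overlap with Shh-/- H3K4me2: 10 of 13 are orange at Shox2, and the highest ratio, 4.10 at Aldh1a2, is not.

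Set against all coding genes, the members had marked starts in most lists. A peak within 1 kb of a start was present for 6 of 7 in WT H3K27ac (43.3% of all 21938 coding genes), 6 of 7 in Shh-/- H3K27ac (40.4%), 7 of 7 in WT H3K4me2 (63.6%) and 7 of 7 in Shh-/- H3K4me2 (63.1%). It was present for 3 of 7 in Shh-/- H3K27me3 (12.6%), these being Shox2, Aldh1a2 and Cyp26b1, and for 5 of 7 in both NIH3T3 lists (52.3% with purmorphamine and 52.2% in controls). Shox2 and Cyp26b1 had both an H3K27me3 and a Shh-/- H3K27ac peak within 1 kb of a start, as did 350 of the 2763 coding genes with an H3K27me3 start peak (12.7%). Their best H3K27me3 start peaks were narrow, 150 bp at 27.4% for Shox2 and 200 bp at 32.8% for Cyp26b1. The RefSeq promoter windows of Shox2 and Cyp26b1 overlapped no H3K27me3 peak.

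The other genes of the pathway, a list of 21, split into marked and unmarked groups. An acetylated start was present for 12 of 21 in WT and 11 of 21 in Shh-/- buds, H3K4me2 for 18 of 21 in both, and H3K27me3 for 6 of 21. The binding protein Crabp2 (1.62% in WT, 0.738% in Shh-/- buds), the retinol dehydrogenase Rdh10 (0.344% and 3.94%) and the receptor Rara (0.588% and 3.41%) had strong acetylated starts. So did Pbx2 (2.64% and 3.21%) and Pbx3 (4.38% and 1.46%), which encode partners of the Meis proteins. The 6 genes with an H3K27me3 start were Rxrg, Aldh1a3, Cyp26a1, Cyp26c1, Crabp1 and Rbp4, and none of them had an acetylated start in either limb list. Their H3K27me3 ranks were 1.62% for Cyp26c1, 2.97% for Cyp26a1 and 8.14% for Aldh1a3, and those of the others were weaker, at 27.3% for Crabp1, 63.9% for Rxrg and 92.8% for Rbp4. Thus the Cyp26 enzymes other than Cyp26b1 and the dehydrogenases Aldh1a2 and Aldh1a3 had methylated, unacetylated starts. Cyp26a1 and Cyp26c1 are neighbours on chromosome 19 with overlapping windows, so they are not independent. Such starts were common, as only 12.7% of coding genes with an H3K27me3 start peak also had a Shh-/- acetylated start. Aldh1a1 had no limb start peak of any mark. In NIH3T3 cells 14 of 21 had an acetylated start in each list.

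Motifs were counted in the central 300 bp of every peak, exactly and on both strands. The GLI consensus GACCACCCA was present for 1 of 136 WT H3K27ac and 1 of 100 Shh-/- H3K4me2 peaks, in both cases the same match 30 bp outside narrow peaks near the Espl1 start in the Rarg window, and for none in the other 5 lists. Over whole lists it was present in 0.171% to 0.339% of peaks. No match of it lay inside a peak of the 7 loci. The MEIS hexamer TGACAG was present in 26 of 136 WT H3K27ac peaks (19.1%, 13.4% to 26.5%, list 17.0%) and 23 of 126 Shh-/- H3K27ac peaks (18.3%, 12.5% to 25.9%, list 16.7%). In NIH3T3 cells it was present in 13.9% (8.89% to 21.2%) of purmorphamine and 15.4% (9.96% to 23.0%) of control peaks at the loci. The share was 19.9% in both whole lists, inside both intervals. DR5 was present in 0.0720% to 0.137% and DR2 in 0.107% to 0.240% of peaks over the lists. Neither was in the centre of an acetylated limb peak at the loci, which for 136 WT peaks has an upper bound of 2.75% (Wilson).

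By the bases covered in the 7 lists, each member had its own nearest coding genes, found as the smallest distance over 7 values of log2 of bp per kb plus 1. They were Ferd3l (0.831) and Twist1 (0.892), which neighbour each other, for Shox2, Rbm46 (0.303) and St14 (0.373) for Aldh1a2, and Senp1 (0.310) and Ints3 (0.636) for Cyp26b1. They were Klhl29 (0.557) and D430042O09Rik (0.574) for Rarb and Rras (0.253) and Gp1ba (0.285) for Rarg. For Meis1 they were Dact3 (0.745) and Jund (0.793), and for Meis2 Pigl (0.641) and Dmpk (0.717). The median distance from a member to all coding genes ran from 5.25 for Rarb to 9.22 for Aldh1a2. The Twist1 window had 125 and 145 bp per kb of limb H3K27ac in WT and Shh-/- buds and 29.9 bp per kb of H3K27me3, beside 33.2 at Shox2.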

How the data were processed

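Peak lists of 7 ChIP-seq conditions were used. Per the labels' processing notes the authors aligned reads to mm10 with Bowtie2 2.2.5, and by the methods they called peaks with CisGenome from both replicates of a condition together against input. In limb, a single input library served each H3K27ac or H3K4me2 condition. For each peak the authors deposited a rank, an FDR (a q-value), a score (the largest statistic of ChIP against input, which orders the rank), the maximum log2 ratio within the peak (ChIP over input) and −log10 of the smallest Poisson p-value. Of these values only the rank, as a percent of its own list, was set beside that of other lists. The others were used only within a list. Read depth is not given in the lists.

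Gene positions were from GENCODE vM21 (basic) and RefSeq, sequence from GRCm38.p6. Sharing meant at least 1 bp in common with some peak of the paired list. Overlap functions were tested on simulated data and against bedtools 2.31.1. Intervals were computed with scipy and are 95% Wilson intervals. The members, lists and gene windows were chosen with earlier results of these data known. The rule for named items was: in each list the best peak of a locus, its best start peak, its best unshared peak, the widest H3K27me3 peak, and the 2 nearest genes by covered bases. Alternatives for the overlap, the rank or FDR threshold, merging, the window and the set of loci were tried. No test between conditions was made, as no list has a replicate.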

Additional observations from a re-analysis of the deposited data

How the results depend on the processing

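The cause of the changes given here was not tested beyond what the alternative's construction shows. Counting a gap of up to 500 bp as shared, which can only lower unshared shares, gave 15.4% WT-only (list 30.5%) and 13.5% Shh-/- only H3K27ac peaks (20.9%), 12.2% (12.2%) and 6.00% (list inside the interval, 2.78% to 12.5%) unshared H3K4me2 peaks in WT and Shh-/- buds, and 24.6% (24.5%) and 26.5% (26.9%) unshared NIH3T3 peaks with purmorphamine and in controls, with the share over the whole list under the same rule in parentheses here and below. It raised the share of H3K27me3 peaks on Shh-/- H3K4me2 peaks to 71.4% (28.3%). Requiring 50% of a peak to be covered, which can only raise unshared shares, gave 47.1% (58.9%) for WT-only and 51.6% (46.8%) for Shh-/- only H3K27ac, 38.9% (35.3%) for WT H3K4me2, and 47.5% (44.2%) and 50.4% (51.2%) for purmorphamine and control. In the better-ranked 50% of every list the values were 32.4% (40.3%) for WT-only H3K27ac, 17.6% (21%) and 32.6% (20.8%) for WT and Shh-/- H3K4me2, the latter above its list where it had been below, 26.2% (26.8%) and 20.3% (30.4%) for purmorphamine and control, 29.4% (24.3%) for H3K27me3 on H3K4me2 and 17 H3K27me3 peaks. Merging peaks within 1 kb gave 29.8% (39.7%) and 27.7% (31.8%) for WT-only and Shh-/- only H3K27ac, 18.8% (18.6%) for WT H3K4me2, 29.5% (29.4%) for control NIH3T3 and 18 H3K27me3 peaks. An FDR under 0.05 left 16 H3K27me3 peaks, and gene bodies without flanks left 17 and gave 47.0% (36.5%) for purmorphamine. The list share of WT-only H3K27ac peaks also lay above the interval with a window of 20 kb, at 38.2% (29.6% to 47.5%, list 48.5%), and without Rarb, at 38.3% (29.9% to 47.4%). The other alternatives stayed inside the interval of the reported value, or within 1.5 times a count, and 121 of 148 did so in all.

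Leaving out each locus in turn gave 38.3% to 42.6% (WT-only H3K27ac), 32.1% to 38.8% (Shh-/- only H3K27ac), 21.5% to 33.3% and 17.3% to 24.7% (WT and Shh-/- H3K4me2), 33.7% to 39.0% and 35.9% to 44.0% (purmorphamine and control), 31.9% to 44.6% (WT H3K27ac on NIH3T3 control), 36.4% to 56.7% and 39.3% to 54.5% (H3K27me3 on H3K27ac and on H3K4me2) and 22 to 35 H3K27me3 peaks, the lowest without Shox2. The share of H3K27me3 on H3K27ac was 45.0% to 65.7% under the overlap, threshold, merging and window alternatives, all chosen after seeing the data. A window of 20 kb held 110 and one of 100 kb 156 WT H3K27ac peaks, beside 136 at 50 kb. No replicate could be left out, and no paired analysis was possible because each list was called from both replicates together. Ranks and widths depend on read depth, which the lists do not give.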
